A study of Mus musculus with 72 samples.

Results

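The 7 genes described here encode the core enzymes of cytosine methylation in mouse DNA: Dnmt1 and Uhrf1, which copy methylation onto new DNA, Dnmt3a and Dnmt3b, which place it on unmethylated sites, and Tet1, Tet2 and Tet3, which oxidise it. They were chosen by name as a pathway, with earlier results of these data known. Symbols were matched among the 55487 genes of the deposited count table. All 7 were found, and all 7 passed the filter on low counts in every fit. In the build mm10 the genes span chr9:20907209-20959888 (Dnmt1, minus strand), chr17:56303321-56323486 (Uhrf1, plus), chr12:3806007-3914443 (Dnmt3a, plus), chr2:153649450-153687730 (Dnmt3b, plus), chr10:62804570-62908996 (Tet1, minus), chr3:133463679-133545139 (Tet2, minus) and chr6:83362373-83459084 (Tet3, minus), and counts are over their exons. Exons of other genes cover 0.8% of the exon bases of Dnmt3a (Dnmt3aos) and 0.25% of those of Tet2 (Gm42567), where reads cannot be told apart without strand.

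The material was CD8+ T cells of OT-I mice, a transgenic strain with a T cell receptor for the ovalbumin peptide SIINFEKL, grown as splenocyte cultures after lysis of red cells. Except for the unstimulated group, cultures were activated with SIINFEKL (10 ng/mL) plus recombinant human IL-2 (100 IU/mL), and were sampled after 4, 24 or 48 h. At each time 4 conditions were cultured: vehicle in complete medium with glutamine (CTL), CB-839 at 1 µM (a glutaminase inhibitor), DON at 1 µM (a glutamine analog that blocks glutamine-using enzymes broadly), and medium without glutamine (NoQ). RNA-seq covered these 13 groups with 4 libraries each, A to D, and CUT&RUN, in which an antibody directs a nuclease to a histone mark, covered H3K27ac and H3K27me3 at 48 h. A single CTL group served for both solvents named in the protocols, DMSO and PBS, so all treatments at a given time were compared with the same CTL libraries. The labels do not say what a replicate letter stands for, and the p-values therefore reflect only how far these libraries vary, which may be technical in part.

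The 52 libraries held 25.6 to 51 M counts. The defining CD8 T cell genes Cd8a and Cd8b1 were present in every group, with Cd8a between 950 and 1090 CPM (a gene's count relative to the TMM-scaled total of its library, in the usual unit) in unstimulated libraries and between 648 and 654 in CTL at 48 h, and lowest in NoQ at 4 h, at 124 to 144. Sums over lists of genes, here and below, are in CPM of the unscaled library total instead. Markers of other splenocytes were low but not even at 4 h. The summed level of 8 B cell markers ranged from 20.7 to 373 CPM in NoQ and from 22.8 to 140 in CTL. It was at most 17.6 in any library at 24 or 48 h. DON libraries had more of 8 myeloid markers, 10.7 to 19.98 CPM against 2.84 to 4.51 in CTL at 24 h and 23.8 to 25.2 against 2.15 to 2.88 at 48 h, and more of the B cell markers at 48 h, 10.1 to 11.3 against 2.68 to 4.05. NoQ libraries had more of 4 CD4 T cell markers, 27.8 to 37.3 CPM against 11.1 to 12.8 in CTL at 24 h and 30.6 to 38.4 against 7.001 to 8.33 at 48 h, while Cd4 itself was at most 0.146 CPM in NoQ at 24 h and 0.106 at 48 h. Smaller rises without overlap were seen in NoQ for the myeloid markers (4.83 to 9.68 CPM at 24 h, 3.85 to 4.97 at 48 h) and in DON at 48 h for the CD4 T cell markers (10.1 to 12.2 CPM). The part of these cells in the DON and NoQ differences below was not tested. In bulk RNA, a change in the share of a cell type and a change in RNA per cell cannot be told apart.

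DNA methylation is copied at each division: UHRF1 binds newly replicated DNA that carries methyl groups on the parental strand only, and brings DNMT1 to it. DNMT3A and DNMT3B write new marks, and in effector CD8 T cells DNMT3A is known for silencing genes of other T cell fates. TET enzymes are dioxygenases that use alpha-ketoglutarate, which cells can make from glutamine, to convert methylcytosine to hydroxymethylcytosine, and TET2 is known to affect memory formation of CD8 T cells.

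Levels below are in CPM, and a difference is a log2 fold change with its SE. Tests are the quasi-likelihood test of edgeR, adjusted by Benjamini-Hochberg over all genes tested, at a threshold of 0.05. "Rose" and "fell" are used of differences past it. Compared per kilobase of exon, which is needed to set genes side by side, Dnmt1 had the highest level of the 7 in unstimulated cells at 19.2 CPM per kb, followed by Tet3 at 7.22, Dnmt3a at 5.88 and Uhrf1 at 4.81. In CTL cells at 4 h Dnmt3a was first at 24.4 CPM per kb. At 48 h Uhrf1 and Dnmt1 reached 113 and 105 CPM per kb, and Dnmt3a was next at 7.09.

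**Figure D1:**
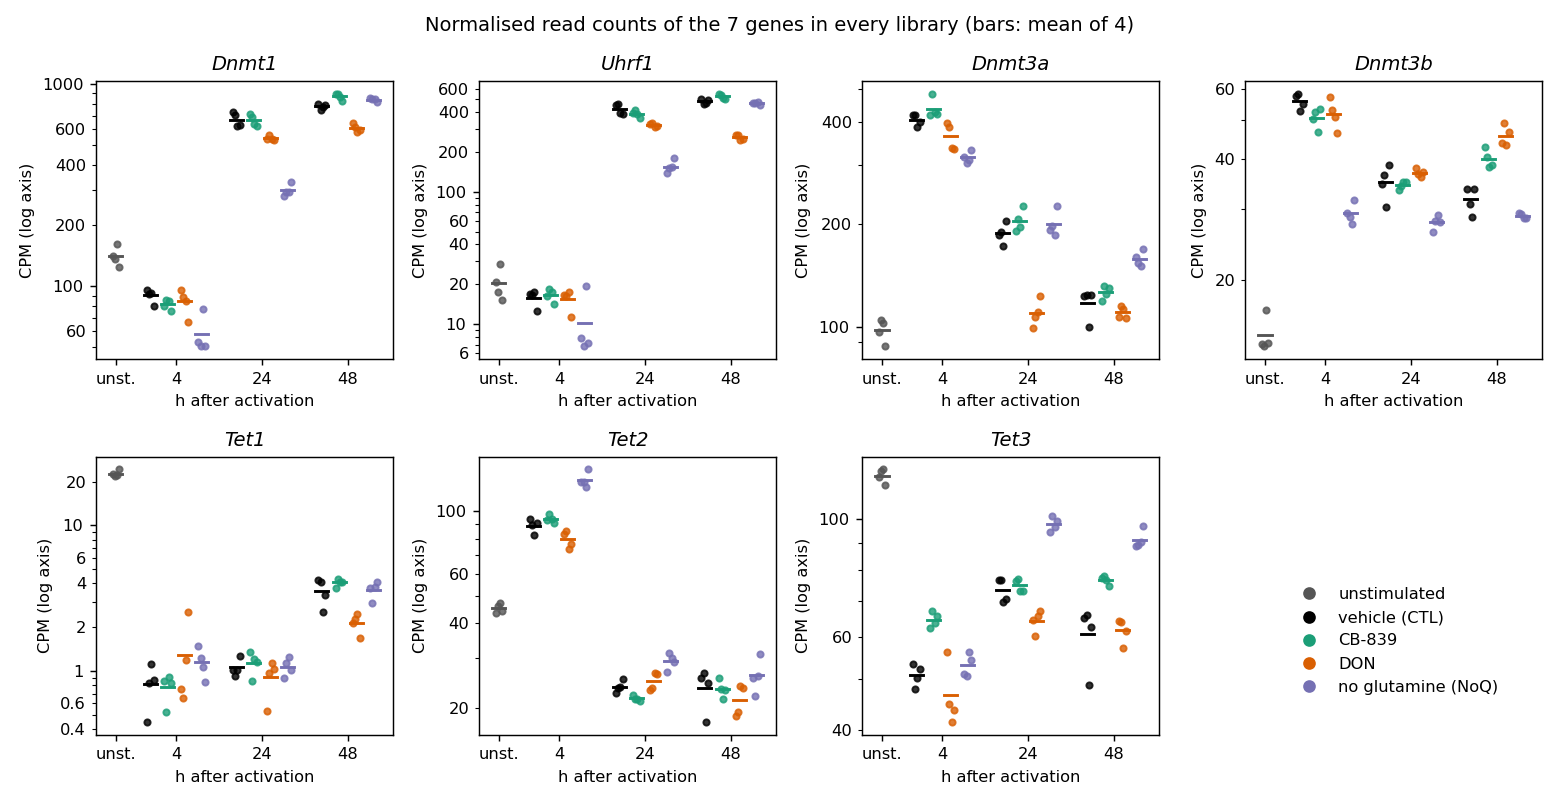
CPM of each gene (log axis, a scale for each panel) in the 4 libraries of every group, with a bar at the mean, by hours after activation. Dnmt1 and Uhrf1 stand above all unstimulated and 4 h libraries from 24 h on, least so in NoQ at 24 h. Dnmt3a peaks at 4 h, and Tet1 is at or above 21.8 CPM in unstimulated libraries and at or below 4.32 CPM in all others.

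Activation in vehicle moved all 7 genes at 4 h, 3 up and 4 down, beside 74.9% of the 18317 genes tested (33.9% higher and 41% lower), so a call by itself set no gene apart. At 24 h 4 rose and 3 fell (84.2% of all genes called, 38.7% higher and 45.5% lower), and at 48 h 3 rose and 3 fell (83.4% of all genes called, 38.3% higher and 45.1% lower). The median log2 fold change over the 7 genes was -0.40, 0.82 and 0.13 at the 3 times, against -0.21, -0.18 and -0.16 over all genes tested.

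Uhrf1, the reader of hemimethylated DNA, was low early and high late. Its level was 20.7, 17.5, 28.6 and 15.1 CPM in unstimulated libraries A to D, and 17.0, 16.5, 17.3 and 12.5 CPM in CTL at 4 h. It then stood at 452, 462, 391 and 388 CPM at 24 h, and at 500.5, 462, 470.5 and 494 CPM at 48 h. The 24 h and 48 h libraries lay far above all earlier ones. The log2 fold change from 4 h to 24 h was 4.66 ± 0.14 (SE, n = 4 per group, edgeR adjusted p = 8.28e-16; in this step 3 of the 7 genes rose and 3 fell, beside 74.1% of all genes called, 36.4% higher and 37.8% lower), a 25.3-fold difference. The change of -0.40 at 4 h against unstimulated cells (edgeR adjusted p = 0.00778) rested on unstimulated library C: without it the value was -0.19 (edgeR adjusted p = 0.104). It was -0.63 with library totals as the only scaling.

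Dnmt1, the maintenance methyltransferase, had 142, 137, 162 and 125 CPM in unstimulated libraries and fell to 95.9, 92.1, 92.2 and 80.3 CPM at 4 h in CTL. Its log2 fold change there was -0.69 ± 0.07 (SE, n = 4 per group, edgeR adjusted p = 2.46e-08). At 24 h its level was 728, 703, 618 and 626 CPM, above every library of the earlier groups, and the log2 fold change against unstimulated cells was 2.12 ± 0.07 (SE, edgeR adjusted p = 1.51e-15). Between 24 h and 48 h Dnmt1 gained 0.20 ± 0.07 (log2, edgeR adjusted p = 0.0318; in this step 2 of the 7 genes rose and 2 fell, beside 32.5% of all genes called, 15.6% higher and 16.8% lower). That call did not hold without library C or D of CTL at 24 h, or A or D of CTL at 48 h, where the adjusted p was between 0.0600 and 0.124. Uhrf1 did not pass the test in that step (log2 fold change 0.17, 95% interval -0.08 to 0.42).

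The 2 genes also had a shared sequence feature near a start of transcription. The 4 words TTTCCCGC, TTTCGCGC, TTTGCCGC and TTTGGCGC, letters that E2F factors of the cell cycle are known to bind, were searched on both strands in the 250 bases before each start in RefSeq (GRCm38.p6). Of 32851 such windows, 1.86% held at least 1 of them. All 7 genes had at least 1 window, and among these only 1 window of Dnmt1 and 1 of Uhrf1 held one. The following 30 bases of each, with the word in capitals, are printed because these 2 genes moved together (5′ to 3′ on the strand of the gene).
Dnmt1: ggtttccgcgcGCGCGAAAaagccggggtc
Uhrf1: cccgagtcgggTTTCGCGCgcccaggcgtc
The Dnmt1 stretch is at chr9:20952824-20952853 on the minus strand and carries the word in reverse, at positions -219 to -212 from the start, and the word lies within an annotated exon. The Uhrf1 stretch is at chr17:56304117-56304146 on the plus strand, at positions -185 to -178 from the start and outside annotated exons. Both hold the same 8 letters, TTTCGCGC, on opposite strands. Each of the 4 words contains a CG pair, and the 2 windows are rich in them. They held 26 (Dnmt1) and 30 (Uhrf1) CG pairs, against a median of 6 over all windows. The share with a word among windows of like CG content was not computed. The 1.86% is a share per window, and Dnmt1 and Uhrf1 each had more than 1 window. Other words were searched too and did not mark these 2 genes alone. CCAAT (33.8% of all windows) was found at Dnmt1, Uhrf1 and Tet3, CACGTG (6.02%) at Dnmt3a, and GGGCGG (32.7%) in windows of all 7 genes. A match of letters is a description, and binding was not measured.

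The de novo enzymes followed another course. Dnmt3a had 96.8, 105, 103 and 87.6 CPM in unstimulated libraries, and 418, 419, 386 and 401.5 CPM in CTL at 4 h. It came down to 187, 190.3, 173 and 204 CPM at 24 h and to 123, 124, 99.8 and 124 CPM at 48 h. No 4 h library overlapped any library of another time. The log2 fold change against unstimulated cells was 2.01 ± 0.08 at 4 h (SE, n = 4 per group, edgeR adjusted p = 2.48e-14) and 0.82 ± 0.08 at 24 h (edgeR adjusted p = 1.46e-08, and 0.52 with library totals as the only scaling). At 48 h it was 0.13 (95% interval -0.04 to 0.30, edgeR adjusted p = 0.143), and 0.24 without CTL library C (edgeR adjusted p = 0.00188).

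Dnmt3b rose with Dnmt3a at 4 h but came down less. Its level was 13.8, 13.6, 16.9 and 13.9 CPM in unstimulated libraries, 57.5, 58.3, 52.8 and 54.8 CPM in CTL at 4 h, and 33.7, 30.9, 28.6 and 33.8 CPM in CTL at 48 h. All activated libraries of CTL lay above all unstimulated ones. The log2 fold changes against unstimulated cells were 1.90 ± 0.09, 1.15 ± 0.08 and 0.99 ± 0.08 at 4, 24 and 48 h (SE, edgeR adjusted p = 1.08e-13, 2.23e-10 and 2.35e-09). Per kilobase, the ratio of Dnmt3a to Dnmt3b was 2.23 ± 0.019 (SD, n = 4) in CTL at 4 h and 1.14 ± 0.069 at 48 h, a description chosen after the values were seen.

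The TET genes went in different directions from each other. Tet1 had 22.5, 21.8, 22.1 and 24.3 CPM in unstimulated libraries. In CTL at 4 h it had 0.45, 0.82, 1.12 and 0.87 CPM, which stood for 17 to 38 counts a library. Its log2 fold change at 4 h was -4.85 ± 0.20 (SE, n = 4 per group, edgeR adjusted p = 2.5e-14), a level 28.9-fold lower. It did not pass the test from 4 h to 24 h (0.30, 95% interval -0.19 to 0.79). From 24 h to 48 h Tet1 rose by 1.74 ± 0.20 (log2, edgeR adjusted p = 1.35e-06), to 4.19, 4.08, 2.54 and 3.32 CPM, all still far below the unstimulated libraries.

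Tet2, often mutated in blood cancers, had 43.5, 46.1, 47.3 and 44.4 CPM before stimulation. It stood at 93.5, 89.1, 82.6 and 90.9 CPM in CTL at 4 h, and at 22.6, 23.5, 23.7 and 25.3 CPM at 24 h. The 3 sets of libraries did not overlap. Its log2 fold change against unstimulated cells was 0.93 ± 0.10 at 4 h (SE, edgeR adjusted p = 7.18e-08) and -1.06 ± 0.10 at 24 h (edgeR adjusted p = 1.33e-08). At 48 h it was -1.08 ± 0.10 (edgeR adjusted p = 1.06e-08).

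Tet3 fell at all 3 times. It had 119.8, 123, 124 and 116 CPM in unstimulated libraries and 53.2, 47.7, 50.1 and 52.1 CPM in CTL at 4 h, with no overlap. The log2 fold changes were -1.29 ± 0.09, -0.84 ± 0.09 and -1.14 ± 0.09 at 4, 24 and 48 h (SE, edgeR adjusted p = 6.15e-11, 3.06e-08 and 4.09e-10). Within activated CTL cells it rose by 0.45 from 4 h to 24 h (edgeR adjusted p = 0.000135) and fell by 0.29 from 24 h to 48 h (edgeR adjusted p = 0.0136). The latter was -0.19 without CTL library C of 48 h (edgeR adjusted p = 0.0203), the library with the lowest Tet1, Tet2, Tet3 and Dnmt3a of its group.

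Glutamine-free medium gave its largest log2 fold changes in the maintenance pair, at 24 h. Against CTL at 24 h, 2 of the 7 genes rose and 3 fell, beside 58.9% of the 16269 genes tested (30% higher and 28.9% lower). At 4 h 1 rose and 3 fell (37.6% of 18274 genes, 16.2% higher and 21.4% lower), and at 48 h 3 rose and none fell (54.3% of 16173 genes, 28% higher and 26.3% lower).

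Dnmt1 in NoQ at 24 h was 280.0, 294, 293 and 330 CPM, below the lowest CTL library of that time at 618 CPM. Its log2 fold change was -1.12 ± 0.06 (SE, n = 4 per group, edgeR adjusted p = 1.27e-11). Uhrf1 was 137.5, 150.3, 153 and 179 CPM, again below all CTL libraries, with a log2 fold change of -1.41 ± 0.08 (SE, edgeR adjusted p = 5.11e-12). By 48 h the NoQ libraries had 858, 844, 844 and 813 CPM of Dnmt1 and 471, 472, 478 and 454 CPM of Uhrf1. For Uhrf1 the 48 h difference from CTL was -0.03 (95% interval -0.13 to 0.07, edgeR adjusted p = 0.613). For Dnmt1 it was 0.12 ± 0.05 (SE, edgeR adjusted p = 0.0288). That small difference did not pass the test under RLE scaling (edgeR adjusted p = 0.067), or without NoQ library A, B or C of 48 h (0.0834, 0.0625 and 0.0612), among other settings, and was 0.22 with library totals only.

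The difference between the 48 h and 24 h effects of NoQ was tested directly in a fit of the 32 libraries of both times. It was 1.246 ± 0.08 for Dnmt1 (SE, edgeR adjusted p = 8.95e-15) and 1.38 ± 0.09 for Uhrf1 (edgeR adjusted p = 2.68e-14). With Dnmt3a at 0.31, 3 of the 7 genes were called higher and none lower in this contrast, beside 29.1% of 17257 genes (16.5% higher and 12.6% lower). From 24 h to 48 h within NoQ, Dnmt1 rose 2.75-fold and Uhrf1 2.96-fold, and 3 of the 7 genes rose and 1 fell (53.6% of all genes called, 27.6% higher and 25.9% lower).

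Already at 4 h Dnmt1 was lower in NoQ, at 53.1, 50.4, 77.0 and 50.9 CPM against 80.3 to 95.9 CPM in CTL (log2 fold change -0.62 ± 0.10, SE, edgeR adjusted p = 0.000144). Uhrf1 was 7.82, 6.77, 19.3 and 7.19 CPM against 12.5 to 17.3 CPM. Library C stood above its group in both genes. With it the Uhrf1 difference was -0.61 (edgeR adjusted p = 0.0905), and without it -1.07 (edgeR adjusted p = 3.84e-06). The same library had the highest sums of B cell, myeloid and erythroid markers of its group (373, 189 and 37.8 CPM) and the highest sum of S phase genes (789.5 against 588 to 611). Library B had nearly as high a B cell sum, 301 CPM, with the lowest Uhrf1 of the 4. The part of these cells in the Uhrf1 values was not tested.

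**Figure D2:**
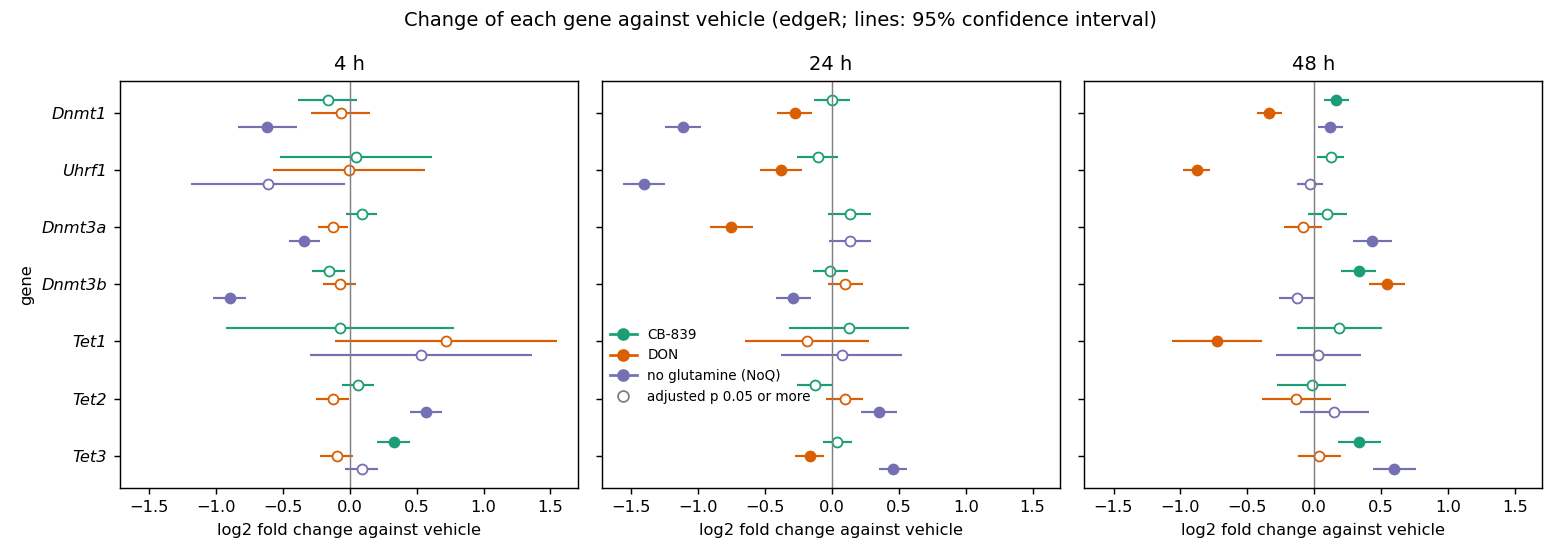
Log2 fold change of each gene against CTL at 4, 24 and 48 h, with its 95% interval, for CB-839, DON and NoQ. Filled points passed an adjusted p of 0.05 (edgeR). The largest negative values are those of Uhrf1 and Dnmt1 in NoQ at 24 h, -1.41 and -1.12, and at 48 h both NoQ points lie near 0 while Uhrf1 in DON is at -0.88.

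In DON the maintenance pair was lower at 24 h and at 48 h. At 4 h none of the 7 genes passed edgeR's test, beside 0.0% of all genes, and none was called with DESeq2, which gave no adjusted p for Tet1 and called 8 genes of the whole table. The letters paired these libraries (r from 0.21 to 0.66). With a replicate block in a fit of these 8 libraries alone, Dnmt3a passed at -0.11 (edgeR adjusted p = 0.0396), among 528 genes called, whereas the block in the fit of all libraries of that time called none. At an unadjusted p under 0.05, edgeR counted 2 of the 7 genes (Dnmt3a and Tet2) and 1862 of 18274 genes. At 24 h 4 of the 7 fell and none rose (58% of all genes called, 28.1% higher and 29.9% lower). With library totals as the only scaling, which shifts the median of all genes by 0.19, the split at 24 h was 2 higher and 2 lower: Dnmt3b at 0.29 and Tet2 at 0.28 passed (edgeR adjusted p = 0.000412 and 0.00148), and Dnmt1 and Tet3 did not. At 48 h 3 fell and 1 rose (71.2% of all genes called, 35.6% higher and 35.6% lower).

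Uhrf1 in DON was 323, 331, 307 and 316 CPM at 24 h and 269, 269, 247 and 250.5 CPM at 48 h. All libraries of both times lay below all CTL libraries of the same time. The log2 fold change was -0.38 ± 0.07 at 24 h (SE, edgeR adjusted p = 0.000209) and -0.88 ± 0.05 at 48 h (SE, edgeR adjusted p = 7.7e-12). The 24 h value was -0.19 with library totals as the only scaling (edgeR adjusted p = 0.027). The effect was more negative at 48 h, by -0.51 ± 0.09 (SE, edgeR adjusted p = 2.49e-05), in a contrast where 2 of the 7 genes were called higher and 1 lower, beside 40.3% of all genes (18.2% higher and 22.1% lower). In the fit of all 52 libraries that contrast had an edgeR adjusted p of 0.0965.

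Dnmt1 in DON was 536.5, 559, 536 and 531 CPM at 24 h and 643, 616.5, 583 and 596 CPM at 48 h, below all CTL libraries of the same time. The log2 fold change was -0.28 ± 0.06 at 24 h (SE, edgeR adjusted p = 0.000839) and -0.33 ± 0.05 at 48 h (SE, edgeR adjusted p = 2.28e-06). With library totals as the only scaling these became -0.09 (edgeR adjusted p = 0.196) and -0.15 (edgeR adjusted p = 0.00998). Per kilobase, Uhrf1 stood at 0.736 ± 0.014 of Dnmt1 (SD, n = 4) in DON at 48 h, against 1.07 ± 0.010 in CTL, a ratio that library scaling does not change and that was chosen after the values were seen.

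S phase genes, a list of 18 that includes the MCM helicase subunits, Cdc6, ribonucleotide reductase and cyclin E genes, were counted in the same comparisons. In NoQ at 24 h all 18 fell (median log2 fold change -0.99), among them Rrm2, a subunit of ribonucleotide reductase, at -2.86, and Tyms, thymidylate synthase, at -2.32. In NoQ at 48 h 12 of 18 fell (median -0.23), where Uhrf1 was not called and Dnmt1 was slightly higher. In DON 9 fell and 3 rose at 24 h (median -0.19), and 15 fell at 48 h (median -0.76). The median over all genes tested was within 0.025 of 0 in these 4 comparisons. In the same order, 28.9%, 26.3%, 29.9% and 35.6% of all genes were called lower, and 28.1% were called higher in DON at 24 h. The summed level of the list was 2646 to 3198 CPM in NoQ at 24 h and 4918 to 5253 in DON at 24 h, against 5177 to 5267 in CTL at 24 h. At 48 h it was 5384 to 5505 in NoQ and 4033 to 4155 in DON, against 5547 to 6178 in CTL. On these unscaled library totals the sum in DON at 24 h overlapped that of CTL, and the other 3 did not. Library totals place DON higher against CTL at 24 h than TMM does, by 0.19 on the log2 scale at the median gene. The sums were not computed under TMM, so the overlap does not show that the list was unchanged in DON at 24 h. Over the 13 group means, the 3 genes with the course most like that of Uhrf1 were Chaf1a, Dut and Atad5 (Pearson r = 0.998, 0.996 and 0.996), and for Dnmt1 they were Gmnn, Rfc2 and Clspn (r = 0.995, 0.994 and 0.994), as a description. Across the same means 1044 and 1054 of the 8227 genes compared had r over 0.9 with Uhrf1 and Dnmt1. Ranked by Spearman's rho over the same means, 0 of these 3 genes were kept for either.

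**Figure D3:**
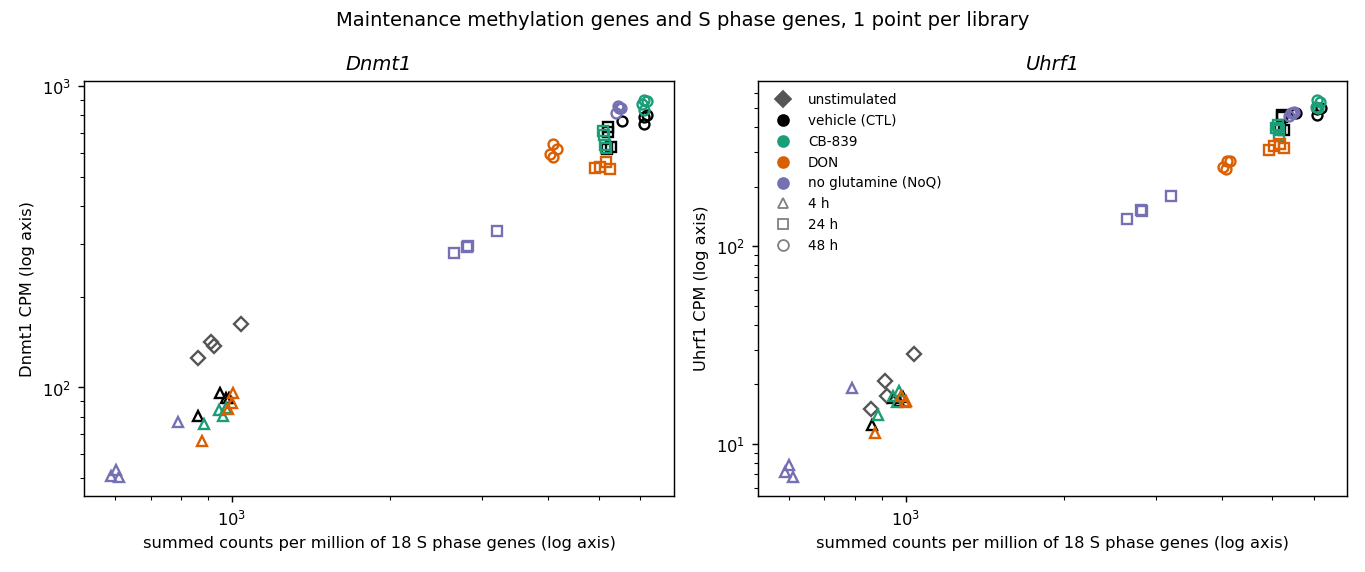
Level of Dnmt1 and Uhrf1 (CPM, log axis) against the summed level of 18 S phase genes (CPM, log axis), 1 point per library. The sum is in CPM of the unscaled library total. NoQ libraries of 24 h lie between the early and late clusters, and NoQ library C of 4 h lies apart from its group in both panels.

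The partners of maintenance methylation are a list of 8 genes. In NoQ at 24 h 5 fell and 1 rose (median log2 fold change -0.30), beside 58.9% of all genes called: Lig1, the DNA ligase of replication, at -1.39, Hells, a chromatin remodeller needed for methylation, at -1.08, and Pcna, the replication clamp, at -1.02 were among those that fell. In DON at 48 h 4 fell and 2 rose (median -0.20), beside 71.2% of all genes called, with Pcna at -1.05, Hells at -0.71 and Usp7, a deubiquitinase that binds DNMT1 and UHRF1, at -0.58 among those that fell. Uhrf2, the paralog of Uhrf1, rose by 0.49 in DON at 48 h, opposite to Uhrf1.

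Of the de novo enzymes, Dnmt3a responded to DON and to NoQ at different times. In DON at 24 h it was 99.3, 107, 111 and 123 CPM, below the lowest CTL library at 173 CPM, with a log2 fold change of -0.75 ± 0.08 (SE, n = 4 per group, edgeR adjusted p = 8.92e-08). At 48 h in DON it was 107, 115, 113 and 106.5 CPM, within the range of CTL, with a difference of -0.08 (95% interval -0.23 to 0.06) and of -0.16 without CTL library C (edgeR adjusted p = 0.00481). The effect at 48 h was higher than that at 24 h by 0.66 ± 0.11 (log2, SE, edgeR adjusted p = 6.57e-06). The mean level in DON at 24 h stood beside that of CTL at 48 h: 110.0 ± 9.98 CPM against 117.9 ± 12.1 CPM (SD, n = 4). That pair of groups was not tested against each other.

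In NoQ Dnmt3a fell at 4 h, to 315, 304, 309 and 331 CPM, all under the CTL libraries (log2 fold change -0.34 ± 0.05, SE, edgeR adjusted p = 5.71e-05). It rose at 48 h, to 161, 154, 151 and 169 CPM against 99.8 to 124 CPM in CTL, with no overlap (0.44 ± 0.07, SE, edgeR adjusted p = 3.01e-05). The difference between its 48 h and 24 h effects was 0.31 ± 0.10 (SE, edgeR adjusted p = 0.023). That call did not hold without CTL library D or NoQ library C of 24 h, or CTL library C or NoQ library D of 48 h (edgeR adjusted p = 0.0513 to 0.0568). NoQ and DON differed from each other by 0.88 at 24 h (edgeR adjusted p = 5.65e-09), where 3 of the 7 genes were higher and 3 lower in NoQ, beside 58.9% of all genes called, 28.7% higher and 30.2% lower.

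Dnmt3b was lower in NoQ at 4 h, at 29.4, 28.8, 27.5 and 31.7 CPM against 52.8 to 58.3 CPM in CTL. Its log2 fold change of -0.90 ± 0.06 (SE, edgeR adjusted p = 1.77e-09) was below that of Uhrf1, which without NoQ library C was lower, at -1.07. At 24 h it was -0.29 ± 0.06 (edgeR adjusted p = 0.000561, and -0.18 with library totals only), and at 48 h -0.13 (95% interval -0.26 to 0.01). DON moved it the other way at 48 h: 43.9, 49.1, 43.3 and 46.7 CPM lay above all CTL libraries, and the log2 fold change was 0.54 ± 0.06 (SE, edgeR adjusted p = 3.48e-07). CB-839 did so as well, at 42.9, 40.4, 38.2 and 38.8 CPM (0.33 ± 0.06, SE, edgeR adjusted p = 0.00168). With a replicate block among only the 8 libraries compared, none of the 7 genes was called for CB-839 at 48 h, among 331 genes called. For both inhibitors the 48 h effect exceeded the 24 h effect, by 0.43 ± 0.09 for DON (edgeR adjusted p = 0.000225) and by 0.36 ± 0.09 for CB-839 (edgeR adjusted p = 0.0158). The CB-839 contrast called 1 of the 7 genes, beside 3.5% of all genes (2.27% higher and 1.23% lower). That call did not hold without CB-839 library A of 48 h (edgeR adjusted p = 0.0529), with no filter (0.0548) or with all 52 libraries in the fit (0.165).

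Partners and regulators of de novo methylation, 7 of 8 tested, were counted in the same way. In NoQ at 24 h 2 rose and 4 fell (median log2 fold change -0.23), and in DON at 48 h 1 rose and 4 fell (median -0.18), beside 58.9% and 71.2% of all genes called. Kdm2b, a CpG-binding histone demethylase, fell in both, by 0.90 and 0.77 on the log2 scale. Ezh2, the H3K27 methyltransferase, fell by 0.46 in NoQ at 24 h.

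Among the TET genes, Tet2 and Tet3 stood higher without glutamine. Tet2 in NoQ at 4 h was 127, 128, 122 and 141 CPM against 82.6 to 93.5 CPM in CTL (log2 fold change 0.57 ± 0.06, SE, n = 4 per group, edgeR adjusted p = 3.29e-07). At 24 h it was 26.9, 31.3, 30.1 and 29.2 CPM against 22.6 to 25.3 CPM (0.35 ± 0.06, SE, edgeR adjusted p = 0.000106). At 48 h the groups overlapped, and the difference was 0.15 (95% interval -0.11 to 0.41).

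Tet3 in NoQ was 94.6, 101, 96.6 and 99.0 CPM at 24 h and 89.0, 89.3, 90.4 and 96.8 CPM at 48 h. Every one of these libraries lay above every CTL library of its time. The log2 fold change was 0.46 ± 0.05 at 24 h (SE, edgeR adjusted p = 2.27e-07) and 0.60 ± 0.08 at 48 h (SE, edgeR adjusted p = 3.11e-06). At 4 h it was 0.09 (95% interval -0.04 to 0.21). CB-839 raised Tet3 at 4 h, to 62.2, 67.1, 63.7 and 65.5 CPM against 47.7 to 53.2 CPM (0.33 ± 0.06, SE, edgeR adjusted p = 0.00102), and at 48 h, to 77.5, 78.0, 76.8 and 74.9 CPM against 48.7 to 66.0 CPM (0.34 ± 0.08, SE, edgeR adjusted p = 0.00643, and 0.0583 with only the 8 libraries compared). DON gave -0.17 at 24 h (edgeR adjusted p = 0.00948), a value that became 0.02 with library totals as the only scaling and -0.10 without DON library B (edgeR adjusted p = 0.0947).

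Tet1 was below vehicle in DON at 48 h: 2.14, 2.27, 2.45 and 1.67 CPM, from 74 to 94 counts a library, lay under the CTL range of 2.54 to 4.19 CPM. The log2 fold change was -0.73 ± 0.16 (SE, edgeR adjusted p = 0.000474). It passed edgeR's test in no other comparison with vehicle, nor an unadjusted p of 0.05, and the 95% intervals at 4 h reached from -0.92 to 1.55 at these low counts. NoQ and DON differed at 48 h in all 7 genes, 6 higher and 1 lower in NoQ, beside 68.6% of all genes (34.6% higher and 34.1% lower), with Tet1 higher by 0.76 (edgeR adjusted p = 0.000316) and Dnmt3b lower by 0.67 on the log2 scale (edgeR adjusted p = 2.39e-08). The seventh call, Tet2 at 0.28 (edgeR adjusted p = 0.0482), did not hold under RLE scaling (0.0644), library totals (0.203), no filter (0.0656) or the replicate block (0.0585), with DESeq2 (adjusted p = 0.0836), or without DON library A or B or NoQ library A, C or D (0.0649 to 0.172).

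CB-839 had few effects beyond those named. At 4 h it raised 1 of the 7 genes (12.5% of all genes called, 5.85% higher and 6.64% lower), and at 48 h 3 rose and none fell (15.2% of all genes called, 8.5% higher and 6.73% lower), Dnmt1 by 0.17 ± 0.05 (SE, edgeR adjusted p = 0.0181) beside Dnmt3b and Tet3. The Dnmt1 value did not pass without CB-839 library A or B of 48 h (edgeR adjusted p = 0.0637 and 0.0586). At 24 h none of the 7 passed edgeR's test, none at an unadjusted p under 0.05 and none with DESeq2, beside 4.95% of all genes called, 2.47% higher and 2.48% lower. In the comparisons of CB-839 with CTL at 4 h and 24 h the letters A to D paired the libraries, and with the letter as a block Dnmt3b passed at 4 h (log2 fold change -0.16, edgeR adjusted p = 0.0391) and Dnmt3a at 24 h (0.13, edgeR adjusted p = 0.0474). At the same dose of 1 µM, DON lay below CB-839 at 48 h in Uhrf1 by -1.002 and in Dnmt1 by -0.50 (edgeR adjusted p = 1.28e-12 and 1.11e-08; -0.33 for Dnmt1 with library totals only), with 1 of the 7 genes higher and 5 lower, beside 70.4% of all genes called, 35.7% higher and 34.7% lower. With library totals only, Dnmt3a (-0.01, edgeR adjusted p = 0.901) and Tet3 (-0.13, edgeR adjusted p = 0.201) were no longer called lower. With all 52 libraries in the fit, Dnmt3b was no longer called higher (0.10, edgeR adjusted p = 0.303). The Dnmt3a call also did not hold without CB-839 library B or D or DON library A or D (edgeR adjusted p = 0.0546 to 0.0753).

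The treatments were also set against each other. In DON against CB-839 at 4 h, 3 of the 7 genes were lower in DON and none higher (16% of all genes called, 7.67% higher and 8.32% lower), led by Tet3 at -0.42 (edgeR adjusted p = 7.57e-05). Tet2 was among them at -0.19 (edgeR adjusted p = 0.0334), a call that did not hold when any 1 of the CB-839 libraries was left out, without DON library A or C (0.0520 to 0.0939), or with only the 8 libraries compared (0.0545). In NoQ against CB-839 at 4 h 1 gene was higher and 4 lower (31.3% of all genes called, 12.9% higher and 18.5% lower), and in NoQ against DON 2 were higher and 3 lower (36.1% of all genes called, 16% higher and 20.1% lower). In both, Dnmt3b was lower in NoQ, by -0.74 and -0.82 on the log2 scale. At 24 h DON was lower than CB-839 in 4 genes and higher in 1 (59.7% of all genes called, 29% higher and 30.8% lower), with Dnmt3a at -0.88 (edgeR adjusted p = 8.79e-09). With library totals only, the differences of Dnmt1, Uhrf1 and Tet3 in that comparison did not pass (edgeR adjusted p = 0.137, 0.258 and 0.636). NoQ against CB-839 gave 2 higher and 3 lower at 24 h (58% of all genes called, 29.1% higher and 28.9% lower), and 2 higher and 2 lower at 48 h (51% of all genes called, 26.6% higher and 24.4% lower).

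From 24 h to 48 h the treated cells took different steps. In CB-839 4 genes rose and 1 fell (48.0% of all genes called, 24.5% higher and 23.5% lower), with Uhrf1 at 0.43 and Dnmt3a at -0.69 (log2, edgeR adjusted p = 8.71e-07 and 1.64e-09). In DON 3 rose and 2 fell (63.5% of all genes called, 31.2% higher and 32.3% lower), and Uhrf1 fell by 0.33 (log2, edgeR adjusted p = 3.78e-05). With all 52 libraries in the fit neither Uhrf1 step passed (edgeR adjusted p = 0.0642 in CB-839 and 0.0712 in DON). Tet1 rose in all 3 treatments, by 1.83 in CB-839, 1.2 in DON and 1.71 in NoQ (log2, edgeR adjusted p = 1.84e-10, 2.18e-06 and 6.8e-10).

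Genes that supply or share the substrates of these enzymes were counted from lists. Over all genes tested, 58.9% were called in NoQ at 24 h, 54.3% in NoQ at 48 h and 71.2% in DON at 48 h, and the counts that follow stand beside those shares. Of 9 tested genes of the cycle of S-adenosylmethionine, the methyl donor, 4 rose and 5 fell in NoQ at 24 h, with Ahcy, which clears the product of methylation, at -0.84. In DON at 48 h 4 rose and 4 fell, with Mat2a, the enzyme that makes the methyl donor, at 1.03, whereas Mat2a was at -0.68 in NoQ at 48 h. Of 17 genes of enzymes that make or use alpha-ketoglutarate, 4 rose and 10 fell in NoQ at 24 h and 3 rose and 9 fell at 48 h, when Gpt2, an alanine transaminase, was at 2.19 and Idh1, the cytosolic isocitrate dehydrogenase, at -2.55. In DON at 48 h 5 rose and 10 fell, with Gpt2 at -1.66. Of 16 other dioxygenases that use the same substrate as TET enzymes, 6 rose and 7 fell in NoQ at 24 h. The histone demethylases Kdm5b at 1.17 and Kdm4a at 1.02 were among those that rose. Of 9 tested TET partners and base excision genes, 5 rose and 4 fell in NoQ at 48 h and 5 rose and 3 fell in DON at 48 h, where Cxxc5, a CpG-binding protein, was at 2.36 and Tdg, the glycosylase that removes oxidised cytosines, at -0.77. Of 9 methyl-CpG readers, 5 rose and 3 fell in NoQ at 24 h, with Zbtb4 at 1.5 among those that rose. All values in this paragraph are log2 fold changes against CTL, and the named genes passed edgeR's test.

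Of 16 germline genes known to be silenced by DNA methylation, 2 had enough counts to be tested at 24 h and 48 h. Brdt, a bromodomain gene of the testis, rose in NoQ at 24 h by 1.16 (log2, edgeR adjusted p = 4e-05). In DON at 24 h and 48 h it rose by 0.67 and 1.62 (edgeR adjusted p = 0.00759 and 1.85e-10). In these comparisons 58.9%, 58% and 71.2% of all genes were called, with 30%, 28.1% and 35.6% higher. The other tested gene, and Brdt in NoQ at 48 h, are not described here. DNA methylation itself was not measured in these files.

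The 7 genes fell into different courses over the 13 group means, given here as Pearson's r of log2 CPM with no test, since the groups share activation and time. Dnmt1 and Uhrf1 ran together (r = 0.991), and Tet2 ran opposite to both (r = -0.967 and -0.953). Dnmt3a ran with Tet2 (r = 0.788) more closely than with Dnmt3b (r = 0.551). By the same measure the gene most like Dnmt3a was Slc29a3 (r = 0.978), followed by Trp53bp1 and Foxp4, and the gene most like Tet2 was Bach1 (r = 0.988), followed by Ecm1 and Gripap1. For Tet1 they were Sema4a (r = 0.981), Ets1 and Arhgap27, for Tet3 Ppp2r5e (r = 0.977), Plec and Hmbox1, and for Dnmt3b Trmt44 (r = 0.963), Ubqln4 and Crtap. Only 14 genes had r over 0.9 with Dnmt3b and 27 with Tet3, against 212 with Dnmt3a and 215 with Tet2. By Spearman's rho 0 of the 3 genes were kept for Dnmt3a, Tet1 and Tet2, and 1 each for Dnmt3b and Tet3, so the names depend on the measure.

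Chromatin at the genes was given by the authors' peak lists at 48 h, 1 per treatment and mark, made from replicates merged at an IDR of 0.05, a measure of agreement between them. The lists differed in length, with 9681 H3K27ac peaks in CTL and 6687 in NoQ, but 117 in CB-839 and 33 in DON. A gene without a listed peak in the 2 short lists therefore says little. Within 1000 bases of the outermost annotated start, Uhrf1 and Tet2 had an H3K27ac peak in CTL and in NoQ, 2 of 7 genes each, beside 42% and 28.6% of the genes tested at 48 h. With any start in RefSeq, a rule added after seeing the data because several of the genes have starts inside the annotated span, 4 of 7 had one in CTL (Dnmt1, Uhrf1, Tet2 and Tet3; 51% of 10381 genes) and 4 in NoQ (Dnmt3a, Uhrf1, Tet2 and Tet3; 34.5%).

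The Uhrf1 peak covered chr17:56302831-56304807 in CTL and chr17:56302551-56304319 in NoQ, both over the stretch with the E2F word printed above. The Dnmt1 peak in CTL covered chr9:20950827-20953261, also over its printed stretch, and no Dnmt1 peak was listed in NoQ, where the level of Dnmt1 RNA at 48 h was near that of CTL. For Dnmt3a the peak at an inner start, chr12:3890841-3892323, was in the NoQ list only, in the condition in which its RNA was higher. Over the whole Dnmt3a gene CTL and NoQ each had 3 listed H3K27ac peaks, and that at chr12:3855199-3857366 was in the CTL list only. Absence from a list is not a test of a difference between conditions.

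Within 1000 bases of the outermost annotated start, none of the 7 genes had a listed peak of H3K27me3, a repressive mark. By the rule of any RefSeq start, added after seeing the data, a peak was listed at a start of Tet1 and of no other of the 7 genes. The peak covered chr10:62882718-62888877 in CTL and chr10:62884005-62889489 in CB-839, beside 11.8% and 12.5% of 10381 genes with such a peak, and none was listed there in DON or NoQ, whose lists held 3533 and 8795 peaks against 13556 and 12417. Tet1 was the gene with the lowest RNA of the 7 in every activated group. Its RNA in NoQ at 48 h did not differ from CTL past the test (log2 fold change 0.03, 95% interval -0.29 to 0.35). In DON at 48 h, where no peak was listed either, Tet1 RNA was lower than in CTL (-0.73, edgeR adjusted p = 0.000474). The CTL list held a second H3K27me3 peak inside the gene, at chr10:62900005-62904141. A link between the mark and the RNA was not tested.

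**Figure D4:**
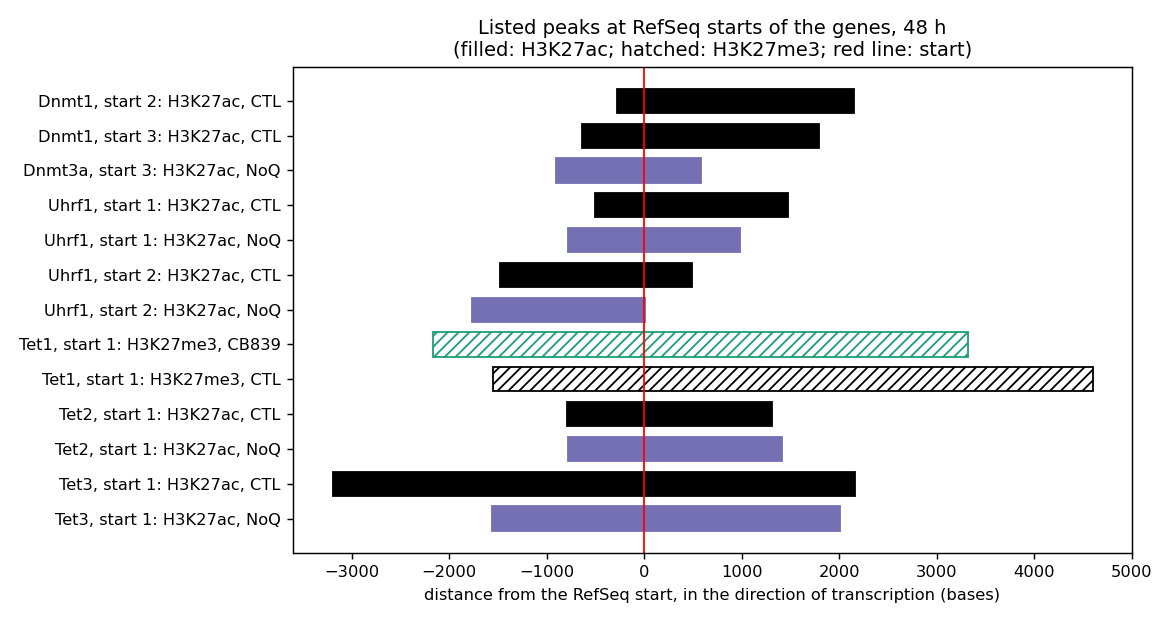
Listed peaks that reach within 1000 bases of a RefSeq start, drawn by distance in bases from that start along the gene, at 48 h. H3K27ac peaks (filled) are at Dnmt1, Dnmt3a, Uhrf1, Tet2 and Tet3, and H3K27me3 peaks (hatched) at Tet1 in CTL and CB-839.

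The windows themselves differ in CpG content, the sites these enzymes act on. In the 250 bases before the start, Tet2 had 51 CG pairs, more than 99.9% of the RefSeq windows, and Uhrf1 had 30 at its second start, more than 94.1%, against a median of 6 over all windows. They are printed as 2 of the 3 genes with H3K27ac at the RefSeq start in both CTL and NoQ, the other being Tet3 with 17 CG pairs, with each CG in capitals (5′ to 3′ on the strand of the gene).
Uhrf1: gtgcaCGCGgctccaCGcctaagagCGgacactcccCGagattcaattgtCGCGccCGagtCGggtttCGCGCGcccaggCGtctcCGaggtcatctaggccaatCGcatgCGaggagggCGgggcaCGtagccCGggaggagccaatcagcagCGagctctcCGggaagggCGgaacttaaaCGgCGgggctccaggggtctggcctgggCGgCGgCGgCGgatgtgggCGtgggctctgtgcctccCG
Tet2: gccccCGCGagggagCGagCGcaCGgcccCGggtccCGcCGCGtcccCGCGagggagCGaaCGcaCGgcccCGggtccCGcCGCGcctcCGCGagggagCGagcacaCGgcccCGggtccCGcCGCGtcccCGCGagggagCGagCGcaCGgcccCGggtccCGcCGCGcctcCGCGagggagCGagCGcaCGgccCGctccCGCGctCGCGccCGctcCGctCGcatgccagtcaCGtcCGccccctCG
The Uhrf1 window is chr17:56304063-56304312 on the plus strand and the Tet2 window chr3:133544391-133544640 on the minus strand, both in GRCm38.p6. The other windows of the 7 genes held from 2 CG pairs, at the outermost start of Dnmt1, to 40, at a start of Dnmt3a.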

How the data were processed

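RNA-seq was given as raw counts per gene for 52 libraries, which the authors made with featureCounts 2.0.1 on GENCODE M25 exons (mm10), paired and with no strand option, per the file headers, although the labels describe a stranded library. STAR, Bowtie2 and MACS2 are named in the submitters' processing notes. The authors' peak lists (broad CUT&RUN peaks kept at an IDR of 0.05, per the file headers and names) give a signal value and a −log10 of the IDR per peak, each deposited as the authors' own score and used only to describe peaks. Counts were filtered with filterByExpr, scaled by TMM and tested with edgeR 4.0.16 (glmQLFit, robust, R 4.3.3) with Benjamini-Hochberg adjustment over all genes, in 5 fits: 1 for each time, 1 for activation, and 1 for both later times. Alternatives were RLE and library-total scaling, no filter, DESeq2 1.42.0, other sets of libraries, a replicate block, and each library left out. The fitting was tested on simulated data. The depth of 25.6 to 51 M counts limits precision mainly for Tet1. All 7 genes are named, with the 3 genes most like each (Pearson's r over 13 group means, mean log2 CPM of at least 3) and members of the gene lists that passed the test. The genes and lists were chosen with earlier results of these data known. The letters paired the libraries (every r over 0.1, from deviations from group means) in 6 of 26 comparisons. Promoter windows come from RefSeq (GRCm38.p6).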

Additional observations from a re-analysis of the deposited data

Results flagged for a closer look

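In 6 of 91 sets of 4 libraries, 1 library stood apart from the other three, where chance gives about 5% of sets. In NoQ at 4 h library C had 77.02 CPM of Dnmt1 and 19.27 CPM of Uhrf1, above the rest of its group. Library C also stood apart in Dnmt3a of CTL at 48 h (99.83 CPM, low) and in Dnmt3b of unstimulated cells (16.85 CPM, high). Library B of CB-839 at 4 h was high in Dnmt3a (484.7 CPM), and library D of CTL at 4 h was low in Uhrf1 (12.46 CPM).

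The effect of a treatment differed between 48 h and 24 h in 7 of 21 tests (log2, 48 h minus 24 h, edgeR). Over all genes, 29.1% were called in this contrast for NoQ, 40.3% for DON and 3.5% for CB-839. In NoQ the differences were 1.246 for Dnmt1, 1.38 for Uhrf1 and 0.31 for Dnmt3a. In DON they were 0.66 for Dnmt3a, 0.43 for Dnmt3b and -0.51 for Uhrf1. In CB-839 the difference for Dnmt3b was 0.36. With all 52 libraries in the fit, Dnmt3b in CB-839, Dnmt3a in NoQ and Uhrf1 in DON did not pass (edgeR adjusted p = 0.165, 0.0722 and 0.0965).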

How the results depend on the processing

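Of 203 log2 fold changes of the 7 genes, 121 passed the test and 93 of these did so under every alternative run, and 20 of 29 counts of genes called stayed within 1.5 times throughout. Library totals as the only scaling shifted the median of all genes in DON against CTL by 0.19 at 24 h and 0.188 at 48 h, and turned Tet3 in DON at 24 h to 0.0244. That scaling called 2 genes for CB-839 at 4 h (1 as reported) and 3 for DON against CB-839 at 24 h (5 as reported). With a replicate block, 2 genes were called for CB-839 at 4 h, 1 at 24 h and 2 in its difference between times (2913, 1840 and 831 over all genes). Among only the 8 libraries compared, the replicate block gave for CB-839 3 (4 h), 2 (24 h) and 0 (48 h), and 1 for DON at 4 h. The numbers over all genes moved as well in that setting, to 4899, 3554, 331 and 528, from 2282, 806, 2464 and 0 as reported. Without the block those 8 libraries gave 2 at 4 h and 1 at 48 h for CB-839 (3 as reported), with 3048 and 1054 over all genes. With all 52 libraries in the fit, 3 genes were called for DON against CB-839 at 24 h and for the step from 24 h to 48 h in both CB-839 and DON, and 0 in the CB-839 difference between times, which was also 0 with no filter and 2 with DESeq2. Leaving out 1 library gave 0 to 2 genes for the latter, 3 to 5 for the DON step and 3 to 5 for the DON difference between times. For H3K27ac at the outermost start, both CTL and NoQ gave 0 genes at an IDR of 0.01, 1 with the peak centre inside the window and 4 at any RefSeq start, and H3K27me3 gave 1 in CTL and CB-839 at any RefSeq start. A low count limits Tet1, with 17 to 38 counts a library in CTL at 4 h.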
